A study of Mus musculus with 8 samples.

Results

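Groups of secreted signals and an enzyme that cells make within minutes to hours of a stimulus were followed in pancreatic tumour cells with and without the amino acid sensor GCN2. The 10 genes were chosen by name: Il6, Il11 and Lif of the interleukin-6 family, the chemokines Cxcl1, Ccl2 and Ccl7, the epidermal growth factor (EGF) family ligands Hbegf, Areg and Ereg, and Ptgs2, which encodes cyclooxygenase-2. They are 10 of the 55536 genes counted in each library. The cells were KRPC-A cells, described by the labels as PDAC-like tumour cells from genetically engineered mice of C57BL/6 background, where PDAC is pancreatic ductal adenocarcinoma. Gcn2 KO cells and Gcn2 WT cells were kept for 1 h in leucine-free or in amino acid-replete medium. RNA-seq and ribosome profiling, which counts the mRNA fragments (footprints) that ribosomes protect from nuclease, gave 1 library for each genotype, medium and assay, 8 in all. The labels do not say how the knockout was made or whether either line is a clone. With 1 library per group nothing shows the spread between cultures, so a ratio sets one library against another, its interval covers counting error only, and no p-value was computed.

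GCN2 is a kinase that senses uncharged transfer RNA and slows translation initiation by phosphorylating eIF2alpha. The 10 genes are classical inducible genes. Their transcripts are made quickly after growth factor, stress or inflammatory signals and many are degraded quickly through AU-rich elements. Interleukin-6, interleukin-11 and leukaemia inhibitory factor (LIF) all signal through the shared receptor chain gp130, encoded by Il6st, to JAK kinases and STAT3. HB-EGF, amphiregulin and epiregulin are made as membrane proteins, released by sheddases such as ADAM17, and activate the EGF receptor. Cyclooxygenase-2 makes the precursor of the prostaglandins. In pancreatic cancer, LIF and interleukin-6 are known as signals exchanged between tumour and stroma, and CXCL1, CCL2 and CCL7 as attractants of myeloid cells.

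Promoter stretches are shown for Areg, Cxcl1 and Il11, and any link between their motifs and their RNA levels was not tested. RefSeq entries on build GRCm38.p6 were used for 6 members (Il6, Il11, Lif, Cxcl1, Areg and Ptgs2). Hbegf was left out of the search and its promoter is not reported here. Ccl2, Ccl7 and Ereg had no entry in the promoter set used. The 120 bases before the start are given 5′ to 3′ in the direction of transcription for the 3 members in which that stretch held a searched motif and whose RNA passed the count minimum described below. Capitals mark the motif matches. The Areg stretch (chr5:91139479-91139598, plus strand) holds the full cAMP response element TGACGTCA 61 to 54 bases before the start, a half-site CGTCA further upstream and the TATA box TATAAA. The Cxcl1 stretch (chr5:90891125-90891244, plus strand) holds an overlapping pair of NF-kB matches. The Il11 stretch (chr7:4778142-4778261, minus strand), before the second of the gene's 2 RefSeq starts, holds an AP-1 match.
Areg: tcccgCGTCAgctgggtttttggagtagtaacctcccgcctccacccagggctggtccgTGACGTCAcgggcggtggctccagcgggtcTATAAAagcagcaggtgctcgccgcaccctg
Cxcl1: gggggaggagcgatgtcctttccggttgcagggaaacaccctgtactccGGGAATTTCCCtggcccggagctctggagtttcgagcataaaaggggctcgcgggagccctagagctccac
Il11: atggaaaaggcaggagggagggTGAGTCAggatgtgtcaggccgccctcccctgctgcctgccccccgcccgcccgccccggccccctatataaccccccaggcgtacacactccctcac
The search covered both strands of 250 bases before each start for AP-1 (TGANTCA), the cAMP response element (TGACGTCA) and its half-site (CGTCA), the ATF4-C/EBP composite (TGATGNAA), the TATA box (TATAAA), NF-kB and the CArG box. A full cAMP response element contains both half-sites. Of 32851 RefSeq mouse promoters of that length, 6.75% held AP-1, 1.55% the full cAMP response element, 17.8% a half-site, 3.45% the ATF4-C/EBP composite, 12.4% the TATA box, 3.90% NF-kB and 1.47% the CArG box. Among the windows or parts of them not shown, Lif and Il6 each held AP-1, Il6 also held NF-kB and a half-site, and Cxcl1 held a pair of half-sites. None of these letters were found in the window of Ptgs2. A match is a run of letters and not a measured binding site.

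The RNA-seq libraries held 49136610 to 60680169 counted reads and the footprint libraries 2671491 to 9993211, the fewest in WT leucine-free cells. Levels are given as CPM, counts scaled to 1e+06 protein-coding reads and adjusted within each assay by trimmed mean of M-values (TMM). Higher and lower therefore mean relative to the other genes of a library, and fewer expressing cells cannot be told apart from less RNA per cell. Eif2ak4, which encodes GCN2, had RNA levels of 16.7 and 13.6 CPM in KO leucine-free and KO replete cells, against 69.7 and 85.7 CPM in the WT cells under the same media. Its footprint levels were 16.2 and 7.26 CPM in KO cells, against 65.2 and 60.2 CPM in WT cells. In RNA, 6 of 10 ductal and epithelial markers were measured, led by Sox9, Krt18 and Krt8, while Epcam had no read and Krt19 stayed at or under 0.595 CPM. Of the 12 immune and endothelial markers and the 8 acinar markers none reached the count minimum in either assay, and their summed RNA levels were at most 1.13 and 0.357 CPM. The 11 fibroblast and mesenchymal markers summed to 2786 to 3502 CPM in RNA. The epithelial marker sum was 1105 CPM in KO leucine-free and 485 CPM in KO replete cells, against 333 CPM in WT leucine-free and 244 CPM in WT replete cells, which is the same order of libraries as for RNA of Hbegf, Areg, Ereg and Ptgs2. In footprints it was 872 and 691 CPM in KO cells, against 421 and 395 CPM in WT cells. Its part in the results was not tested.

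A gene was taken as measured in an assay when its mean count over the 4 libraries was at least 30. By that limit 9 of the 10 genes were measured in RNA and 6 in footprints (Lif, Ccl2, Hbegf, Areg, Ereg and Ptgs2). Il6 was too low in both assays. Il11, Cxcl1 and Ccl7 were too low in footprints. Il11 reached the limit in RNA only through its reads in KO leucine-free cells, since its mean count over the other 3 libraries was 15.3, so its calls and its part in the counts below follow in part from the filter. Calls of higher or lower needed a difference of 2-fold or more (1 on the log2 scale) and a 95% counting interval that excluded 0.

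**Figure D1:**
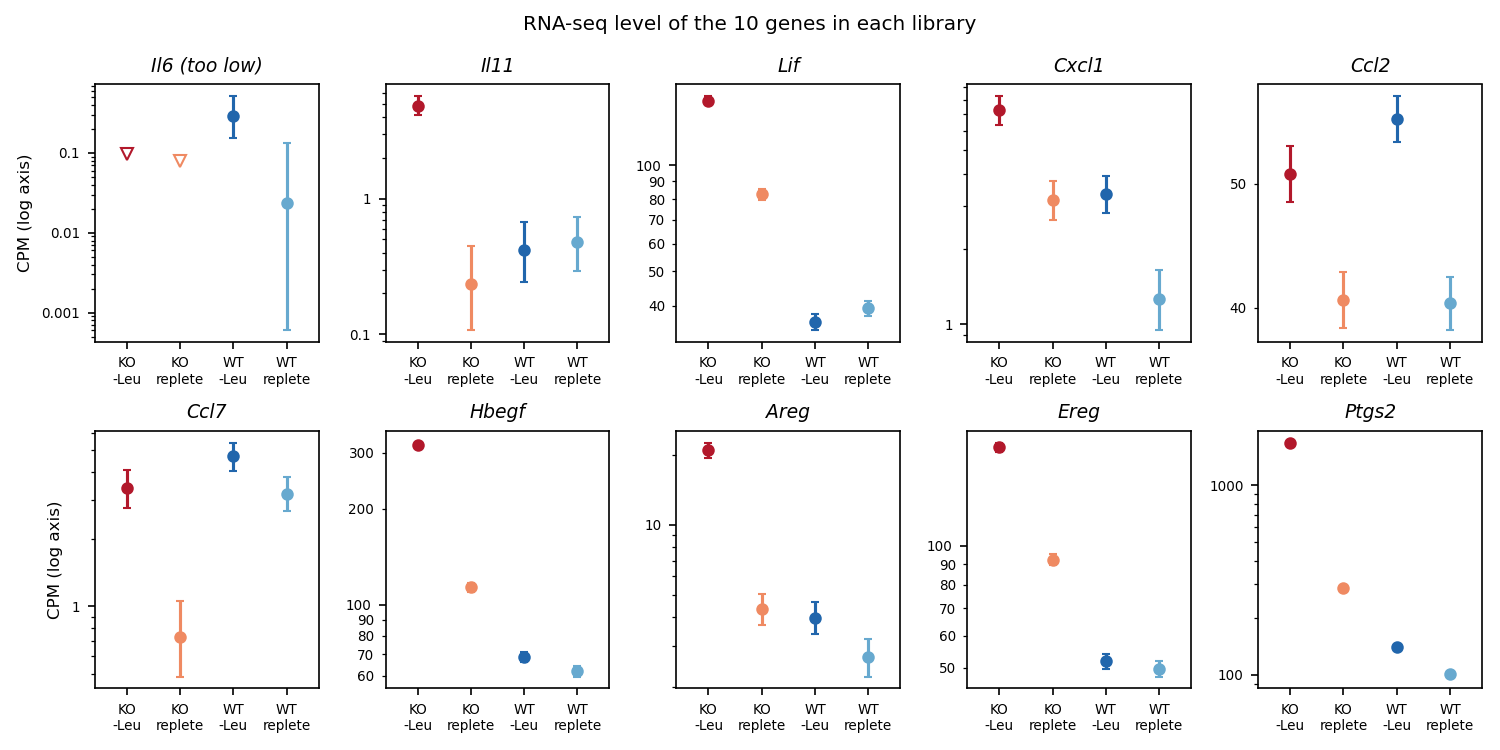
RNA-seq levels of the 10 genes in CPM (log axes, which differ between panels) in each of the 4 libraries, in the order KO leucine-free, KO replete, WT leucine-free and WT replete. Points are single libraries, bars are 95% exact Poisson intervals, and open triangles stand at the level of 3 reads where a library had no read. In 7 panels (Il11, Lif, Cxcl1, Hbegf, Areg, Ereg and Ptgs2) the KO leucine-free library is highest, while Il6, Ccl2 and Ccl7 are highest in WT leucine-free cells.

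Leucine withdrawal for 1 h went with higher RNA of most of these genes by 2-fold or more in KO cells, and in WT cells mostly with ratios above 0 but under 2-fold. In KO cells 6 of the 9 measured genes were called higher and none lower (Il11, Ptgs2, Areg, Ccl7, Hbegf and Cxcl1). Over all 10814 measured genes, 1.77% were called higher and 1.41% lower in that comparison. Leaving out Il11, 5 of 8 were called higher, and the median log2 ratio of the 8 was 1.34, against -0.00 for all measured genes. In WT cells 1 of 9 was called higher (Cxcl1) and none lower, where 0.842% of all genes were called higher and 0.869% lower. The WT ratios of 7 of the 9 lay above 0, and 6 of the 9 intervals lay wholly above it (Cxcl1, Ccl2, Ccl7, Hbegf, Areg and Ptgs2). The median of the 8 genes other than Il11 was 0.48 in WT cells, against 0.00 for all genes. The ratios formed from the 4 libraries of an assay share libraries with each other, so the comparisons below are not independent.

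Il11 (chromosome 7, GRCm38 positions 4772373 to 4782859, minus strand) had the largest leucine ratio of the 9 in KO cells. Interleukin-11 is a gp130 cytokine made by stromal and epithelial cells. Its RNA counts were 150 in KO leucine-free and 9 in KO replete cells, against 17 in WT leucine-free and 20 in WT replete cells. On the CPM scale its RNA levels were 4.84 and 0.235 in KO cells and 0.417 and 0.476 in WT cells. The KO leucine-free library stood alone, since the intervals of the other libraries overlapped. The log2 RNA ratio of leucine-free over replete was 4.28 in KO cells (95% interval 3.40 to 5.52), a 19.5-fold difference that rests on 9 reads in KO replete cells. In WT cells it was -0.18 (-1.21 to 0.82). Against WT cells in leucine-free medium, Il11 RNA was 11.2-fold higher in KO cells (log2 3.49, 2.81 to 4.35), although this ratio lay within 3 robust SDs of the 500 genes nearest in mean count. In replete medium the KO over WT log2 ratio was -0.98 (-2.34 to 0.18), which was not called. The KO minus WT difference of the leucine responses was 4.47 on the log2 scale (3.15 to 5.79). Even at its peak Il11 RNA was modest, at 2.32 CPM per kb of exon in KO leucine-free cells, above 22.3% of measured genes.

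Footprints on Il11 were few but fell in the same library. There were 17 in KO leucine-free cells and 1 in KO replete cells, against 0 in WT leucine-free and 1 in WT replete cells. With the WT leucine-free library set at 3 counts, the 1-sided limit for a count of 0, the Il11 footprint level was at least 3.14-fold higher in KO leucine-free cells, a bound that takes the 17 reads without error. The 2-sided 95% exact interval, which covers the error of both counts, began at 2.29-fold (log2 1.19).

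Lif (chromosome 11, GRCm38 positions 4257557 to 4272514, plus strand) encodes leukaemia inhibitory factor. Its RNA levels were 153 and 82.7 CPM in KO leucine-free and KO replete cells, against 35.9 and 39.3 CPM in WT leucine-free and WT replete cells. Both KO libraries were above both WT libraries. The leucine ratio was 0.88 on the log2 scale in KO cells (0.82 to 0.95), just short of the 2-fold limit, and -0.13 in WT cells (-0.23 to -0.03). Lif RNA was 4.25-fold higher in KO than in WT cells in leucine-free medium (log2 2.09, 2.003 to 2.17) and 2.10-fold higher in replete medium (log2 1.07, 0.99 to 1.16). For its leucine responses the KO minus WT difference was 1.02 (0.89 to 1.14), which came to 0.991 and was no longer called with scaling by total counts. Lif footprint levels were 37.6 and 16.4 CPM in KO cells, against 7.11 and 7.28 CPM in WT cells, the WT leucine-free value resting on 17 reads. The 2 WT footprint levels did not differ beyond counting error. The footprint leucine ratio was called in KO cells (log2 1.19, 0.84 to 1.56) and was -0.03 in WT cells (-0.90 to 0.75). Footprint ratios of KO over WT were 2.38 (1.68 to 3.22) in leucine-free and 1.16 (0.71 to 1.64) in replete medium on the log2 scale. Lif's footprint calls for leucine in KO cells, for KO over WT in replete medium and for the KO minus WT difference (1.23) lay within 3 robust SDs of the 500 genes nearest in mean count.

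Il6 was close to absent. Its RNA counts were 0 and 0 in KO leucine-free and KO replete cells, against 12 and 1 in WT leucine-free and WT replete cells. A count of 3, the limit that a count of 0 allows, corresponds to 0.0967 and 0.0783 CPM in the KO libraries. With the KO leucine-free library set at 3 counts, Il6 RNA was at least 3.05-fold lower there than in WT leucine-free cells, a bound that takes the 12 reads without error. The 2-sided 95% exact interval, which covers the error of both counts, began at 2.12-fold (log2 1.08, WT over KO). Footprint counts were 2 and 0 in KO cells and 0 and 0 in WT cells, too few for any comparison. Il6 was the sole member with RNA reads in WT libraries alone.

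The 3 chemokines followed 3 different patterns. Cxcl1, a ligand of the neutrophil receptor CXCR2, had RNA levels of 7.25 and 3.16 CPM in KO leucine-free and KO replete cells, against 3.34 and 1.26 CPM in WT leucine-free and WT replete cells. The KO replete and WT leucine-free levels did not differ beyond counting error, with KO leucine-free above and WT replete below both. Its leucine ratio was 1.20 in KO cells (0.87 to 1.53) and 1.40 in WT cells (0.94 to 1.89) on the log2 scale. Their KO minus WT difference was -0.20 (-0.76 to 0.36). Cxcl1 RNA was also higher in KO than in WT cells in both media, with log2 ratios of 1.12 (0.81 to 1.44) in leucine-free and 1.32 (0.85 to 1.82) in replete medium. Each of these 4 Cxcl1 calls lay within 3 robust SDs of the 500 genes nearest in mean count. Cxcl1 footprints, under the count minimum, numbered 54 and 22 in KO cells and 13 and 14 in WT cells, which is 12.5 and 3.40 CPM in KO cells and 5.43 and 1.54 CPM in WT cells. The log2 footprint ratios of leucine-free over replete were 1.85 in KO cells (1.14 to 2.67) and 1.76 in WT cells (0.61 to 3.01).

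Ccl2, which attracts monocytes through CCR2, was called in none of the comparisons. Its RNA levels were 50.9 and 40.6 CPM in KO leucine-free and KO replete cells, against 56.2 and 40.3 CPM in WT leucine-free and WT replete cells. Its leucine ratios stayed under the 2-fold limit, at log2 values of 0.33 in KO cells (0.23 to 0.43) and 0.48 in WT cells (0.39 to 0.57). The KO over WT ratios were -0.14 (-0.24 to -0.05) in leucine-free and 0.01 (-0.09 to 0.11) in replete medium. Its footprint levels were 54.3 and 60.6 CPM in KO cells and 58.9 and 64.8 CPM in WT cells, and no neighbours in the order of these 4 levels differed beyond counting error. In WT replete cells Ccl2 had the highest RNA level per kb of the 9 measured genes, at 35.4 CPM per kb.

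Ccl7, which encodes the monocyte attractant CCL7 and lies 8258 bases from Ccl2 on chromosome 11, was set apart by its low level in KO replete cells. Its RNA levels were 3.38 and 0.731 CPM in KO leucine-free and KO replete cells, against 4.69 and 3.19 CPM in WT leucine-free and WT replete cells. The KO replete library lay below the other 3, and KO leucine-free and WT replete cells did not differ beyond counting error. In replete medium Ccl7 RNA was 4.31-fold lower in KO than in WT cells, with a log2 ratio of -2.11 (-2.77 to -1.53). In leucine-free medium the ratio was -0.47 (-0.83 to -0.12), which was not called. The leucine ratio was 2.19 in KO cells (1.599 to 2.87) and 0.55 in WT cells (0.23 to 0.89). Their difference of 1.64 (0.96 to 2.31) lay within 3 robust SDs of the 500 genes nearest in mean count. Footprints on Ccl7, under the count minimum, numbered 13 and 11 in KO cells and 24 and 43 in WT cells. The log2 footprint ratios of leucine-free over replete were 0.79 in KO cells (-0.45 to 2.13) and 1.07 in WT cells (0.30 to 1.83), where the RNA ratio was the larger in KO cells. Footprint ratios of KO over WT were -1.69 (-2.83 to -0.70) in leucine-free and -1.45 (-2.58 to -0.50) in replete medium.

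**Figure D2:**
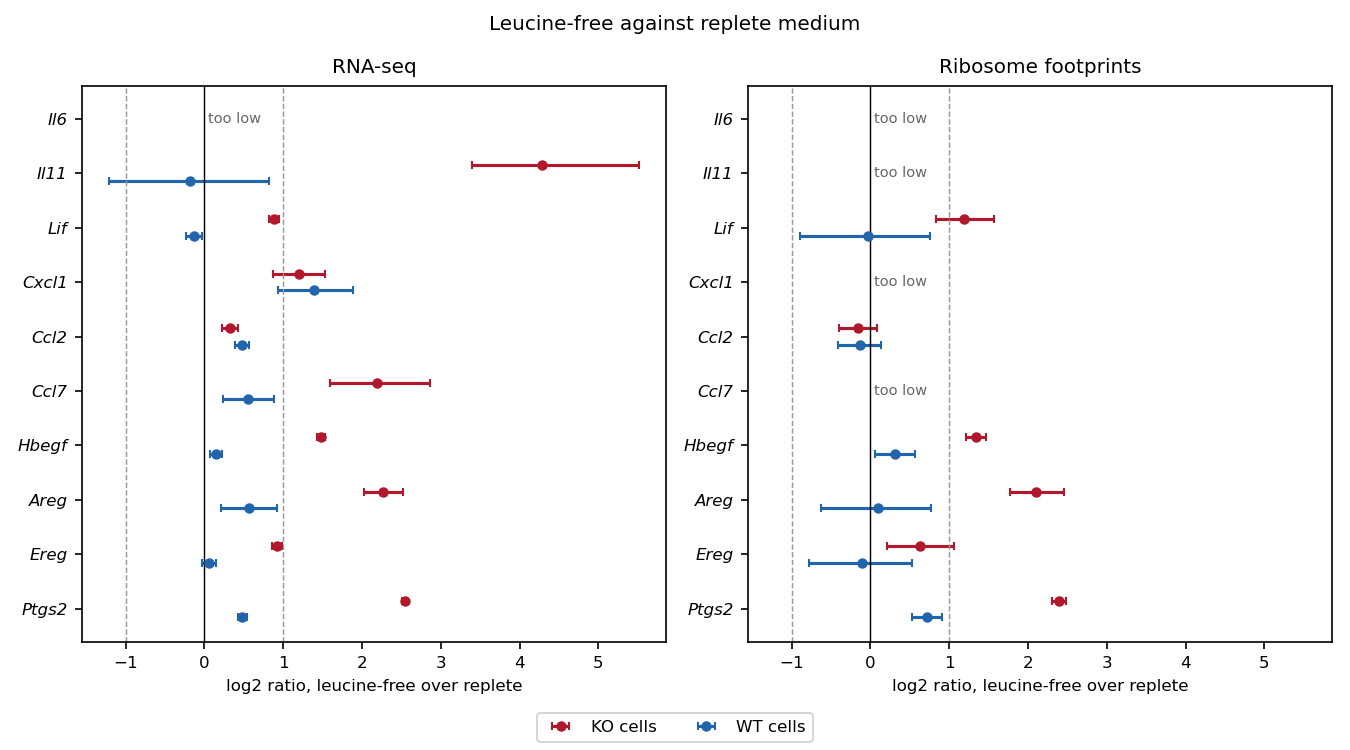
Log2 ratio of leucine-free over replete medium for each gene in KO cells (red) and WT cells (blue), in RNA-seq and in ribosome footprints. Bars are 95% exact binomial counting intervals of a pair of libraries, dashed lines mark the 2-fold limit, and genes under the count minimum are marked as too low. The RNA ratio of KO cells lies to the right of that of WT cells for 7 of the 9 measured genes (Il11, Lif, Ccl7, Hbegf, Areg, Ereg and Ptgs2).

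The EGF receptor ligands had their highest levels in KO leucine-free cells in both assays. Hbegf encodes heparin-binding EGF-like growth factor. Hbegf RNA levels were 316 and 114 CPM in KO leucine-free and KO replete cells, against 68.6 and 62.0 CPM in WT leucine-free and WT replete cells. The 4 libraries did not overlap, and the WT pair lay close together. The log2 leucine ratio was 1.48 in KO cells (1.42 to 1.53) and 0.15 in WT cells (0.07 to 0.22), and the KO minus WT difference was 1.33 (1.24 to 1.42). Hbegf RNA was 4.60-fold higher in KO than in WT cells in leucine-free medium (log2 2.20, 2.14 to 2.26). In replete medium the log2 ratio was 0.87 (0.80 to 0.94), under the limit. Hbegf footprint levels were 306 and 121 CPM in KO cells and 71.5 and 57.5 CPM in WT cells, close to its RNA levels in each library. The footprint leucine ratio was 1.34 in KO cells (1.21 to 1.47) and 0.31 in WT cells (0.06 to 0.57).

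Areg (chromosome 5, GRCm38 positions 91139599 to 91148432, plus strand) encodes amphiregulin. Per kb of exon its RNA level in KO leucine-free cells was 17.2 CPM, against 65.3 CPM for Hbegf. Areg RNA levels were 20.9 and 4.33 CPM in KO leucine-free and KO replete cells, against 3.98 and 2.69 CPM in WT leucine-free and WT replete cells. KO replete and WT leucine-free cells did not differ beyond counting error. The log2 leucine ratio of Areg RNA was 2.27 in KO cells (2.02 to 2.52), a 4.81-fold difference at rank 31 of 10814 genes, and 0.56 in WT cells (0.21 to 0.92). The KO minus WT difference was 1.70 (1.28 to 2.13). In leucine-free medium Areg RNA was 5.24-fold higher in KO than in WT cells (log2 2.39, 2.14 to 2.65), and in replete medium the log2 ratio was 0.69 (0.33 to 1.05). Areg footprint levels were 64.0 and 14.8 CPM in KO cells and 10.03 and 9.37 CPM in WT cells. The 24 Areg footprints of the WT leucine-free library leave a wide interval there, 6.43 to 14.9 CPM, which overlapped those of WT replete and KO replete cells. The footprint leucine ratio was 2.10 in KO cells (1.77 to 2.46) and 0.10 in WT cells (-0.62 to 0.77). Their difference of 2.01 (1.28 to 2.73) had rank 12 of 9169 genes.

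Ereg encodes epiregulin and lies 45952 bases from Areg on chromosome 5. Ereg RNA levels were 175 and 92.4 CPM in KO leucine-free and KO replete cells, against 51.9 and 49.7 CPM in WT leucine-free and WT replete cells. Both KO libraries were above both WT libraries, and the WT pair did not differ beyond counting error. The log2 leucine ratio was 0.92 in KO cells (0.86 to 0.98), under the limit, and 0.06 in WT cells (-0.03 to 0.15). The KO over WT ratio was 1.75 in leucine-free medium (1.68 to 1.82), which was called, and 0.90 in replete medium (0.82 to 0.97), which was not. Ereg footprint levels were 22.3 and 14.4 CPM in KO cells and 10.9 and 11.7 CPM in WT cells. The footprint ratio of KO over WT in leucine-free medium was 1.02 (0.40 to 1.72). That call was lost with a prior count of 2 (log2 0.996), and it lay within 3 robust SDs of the 500 genes nearest in mean count. An opposite-strand gene, Gm19610, shares 141 exonic bases with Ereg and had at most 23 reads in any library, and the counting used no strand.

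Ptgs2 (chromosome 1, GRCm38 positions 150100031 to 150108227, plus strand) had the highest RNA level per kb of the 10 genes in KO leucine-free cells. Ptgs2 RNA levels were 1663 and 286 CPM in KO leucine-free and KO replete cells, against 141 and 101 CPM in WT leucine-free and WT replete cells. The 4 libraries were separate, and the order was that of Hbegf. Per kb of exon the KO leucine-free level was 363 CPM, above 99.7% of measured genes, while the WT replete level was 22.0 CPM per kb, above 78.1%. The log2 leucine ratio of Ptgs2 RNA was 2.54 in KO cells (2.51 to 2.57), a 5.81-fold difference at rank 23 of 10814. In WT cells it was 0.48 (0.42 to 0.54). Ptgs2 RNA was 11.8-fold higher in KO than in WT cells in leucine-free medium (log2 3.56, 3.52 to 3.60) and 2.84-fold higher in replete medium (log2 1.504, 1.45 to 1.56). The KO minus WT difference of the leucine responses was 2.06 (1.996 to 2.13). Ptgs2 footprint levels were 1061 and 202 CPM in KO cells and 135 and 81.5 CPM in WT cells. The footprint leucine ratio was 2.40 in KO cells (2.31 to 2.49), rank 15 of 9169, and 0.72 in WT cells (0.53 to 0.91).

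**Figure D3:**
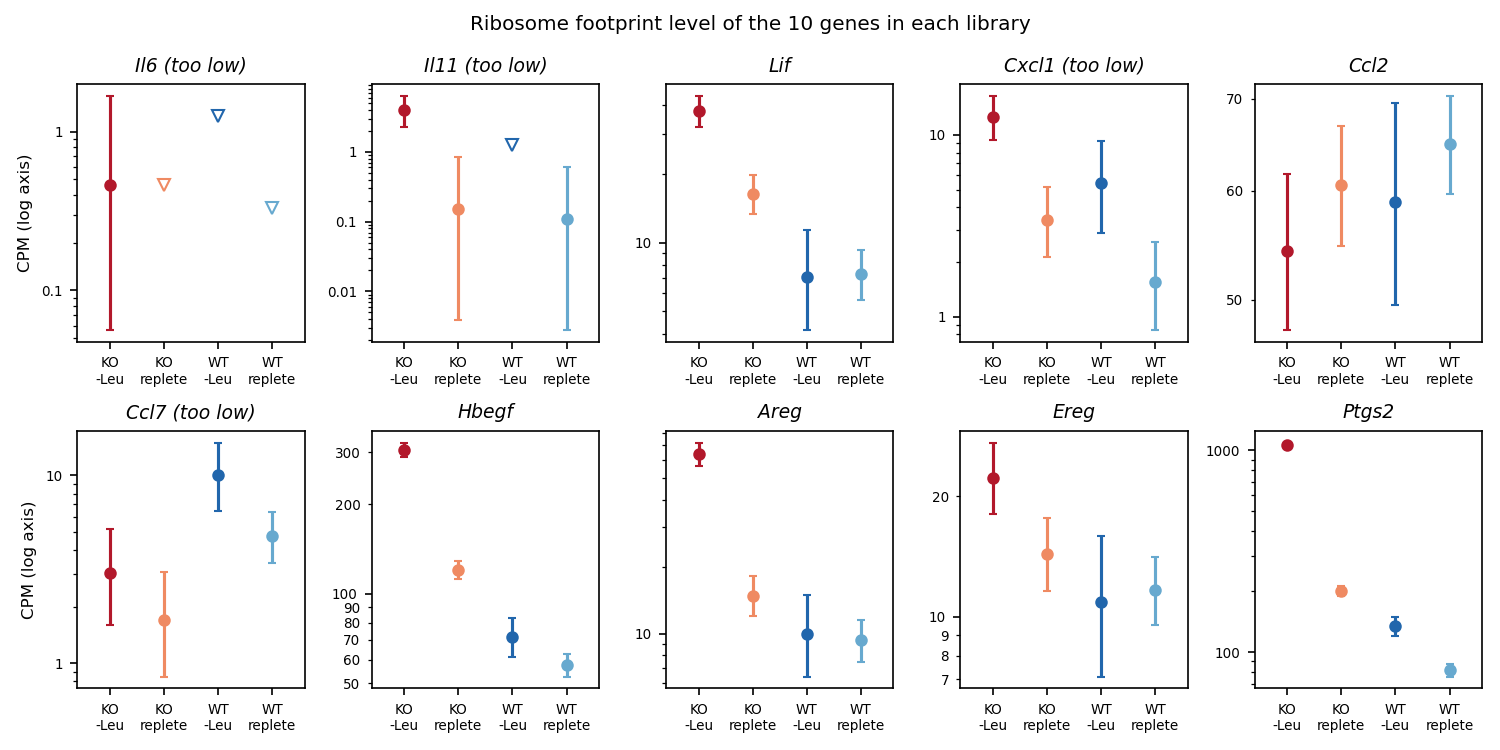
Ribosome footprint levels of the 10 genes in CPM (log axes, which differ between panels) in the same 4 conditions, with 95% exact Poisson intervals and open triangles at the level of 3 reads where a library had none. The 5 measured genes Lif, Hbegf, Areg, Ereg and Ptgs2 are highest in KO leucine-free cells, and the 4 levels of Ccl2 overlap.

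KO cells differed from WT cells for most of these genes in leucine-free medium and for fewer in replete medium. In leucine-free medium 7 of the 9 measured genes had RNA called higher in KO cells and none lower (Ptgs2, Il11, Areg, Hbegf, Lif, Ereg and Cxcl1). Over all measured genes 5.26% were called higher and 3.12% lower. Leaving out Il11, 6 of 8 were called higher, and the median log2 ratio of the 8 was 1.92, against 0.01 for all genes. In replete medium 3 of 9 were called higher (Ptgs2, Cxcl1 and Lif) and 1 lower (Ccl7), where 4.36% of all genes were called higher and 2.51% lower. The median of the 8 other than Il11 was 0.88 in replete medium, against 0.00 for all genes. The KO minus WT difference of the leucine responses was called higher for 6 of 9 (Il11, Ptgs2, Areg, Ccl7, Hbegf and Lif) and lower for none, where 2.45% of all genes were called higher and 2.21% lower. Leaving out Il11 it was 5 of 8. For Ereg the difference was 0.86 (0.75 to 0.96), and for Ccl2 it was -0.15 (-0.29 to -0.02).

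**Figure D4:**
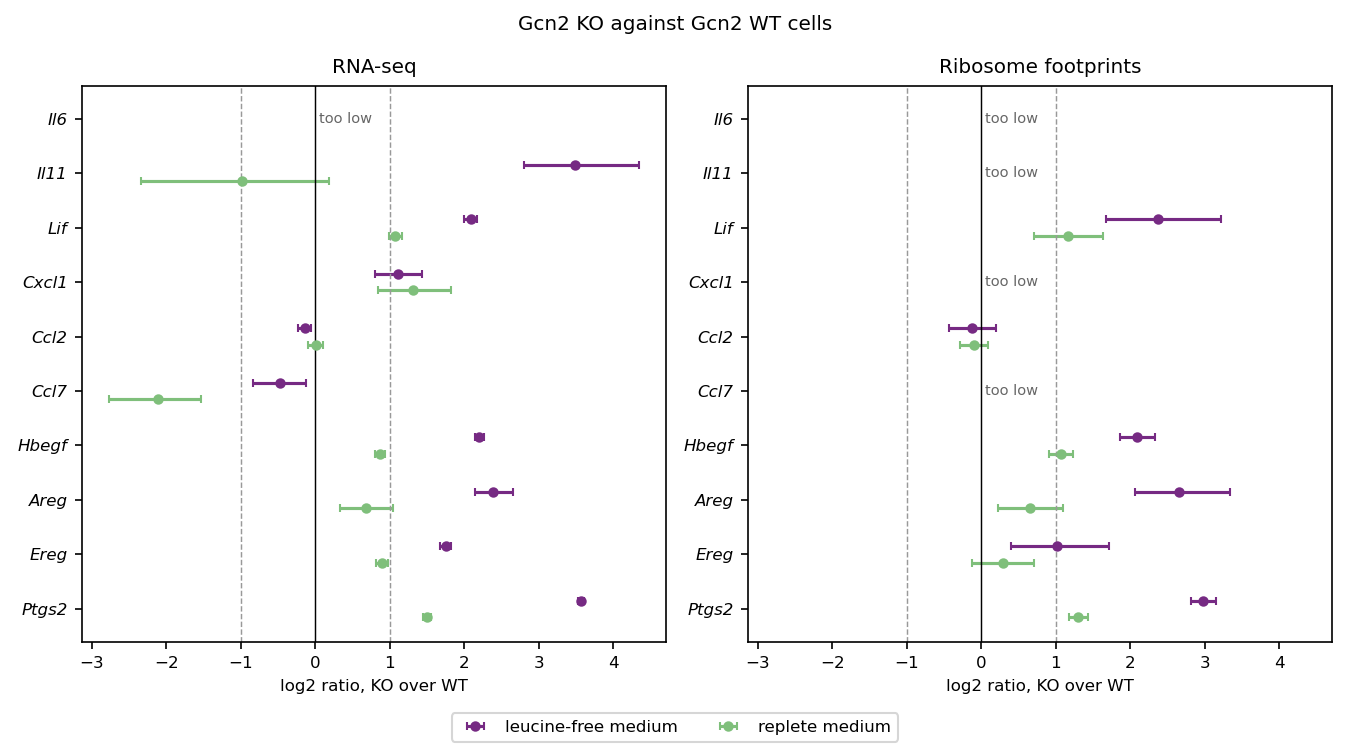
Log2 ratio of KO over WT cells for each gene in leucine-free medium (purple) and replete medium (green), in RNA-seq and in ribosome footprints. Bars are 95% exact binomial counting intervals of a pair of libraries and dashed lines mark the 2-fold limit. Ptgs2, Lif, Hbegf, Areg and Ereg lie further right in leucine-free than in replete medium in both assays, Ccl2 lies near 0 in both media, and Ccl7 RNA lies left of 0.

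Footprints could be compared for 6 of the 10 genes. In KO cells 4 of 6 had leucine ratios called higher and none lower (Ptgs2, Areg, Hbegf and Lif), where 1.53% of all 9169 measured genes were called higher and 0.611% lower. In WT cells none of the 6 was called in either direction, where 0.883% of all genes were called higher and 0.611% lower. The median of the 6 was 1.27 in KO cells and 0.03 in WT cells. For KO over WT cells 5 of 6 were called higher in leucine-free medium, all but Ccl2, and 3 of 6 in replete medium (Ptgs2, Lif and Hbegf). None was called lower. Over all genes 4.93% were called higher and 2.32% lower in leucine-free medium, and 2.18% higher and 0.829% lower in replete medium. The KO minus WT difference was called higher for 4 of 6 (Areg, Ptgs2, Lif and Hbegf) and lower for none, where 3.03% of all genes were called higher and 1.65% lower. Hbegf's footprint difference was 1.03 (0.75 to 1.31) and that of Ptgs2 was 1.67 (1.46 to 1.88).

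Translation efficiency (TE), the footprint level over the RNA level, was not called changed by leucine withdrawal for any of the 6 genes in either genotype. Over the 9097 genes measured in both assays, 1.57% were called higher and 1.43% lower in KO cells, and 1.14% higher and 1.76% lower in WT cells. The median log2 TE change of the 6 was -0.15 in KO cells and -0.04 in WT cells. Ccl2 had the TE change furthest from 0 in both genotypes, with log2 values of -0.49 in KO cells (-0.74 to -0.23) and -0.62 in WT cells (-0.90 to -0.34). For Ptgs2 the change was -0.14 in KO cells (-0.24 to -0.05) and 0.24 in WT cells (0.05 to 0.44). The intervals of the changes of Lif, Hbegf, Areg and Ereg included 0 in both genotypes, and in WT cells those of Lif, Areg and Ereg each spanned more than 1 log2 unit.

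**Figure D5:**
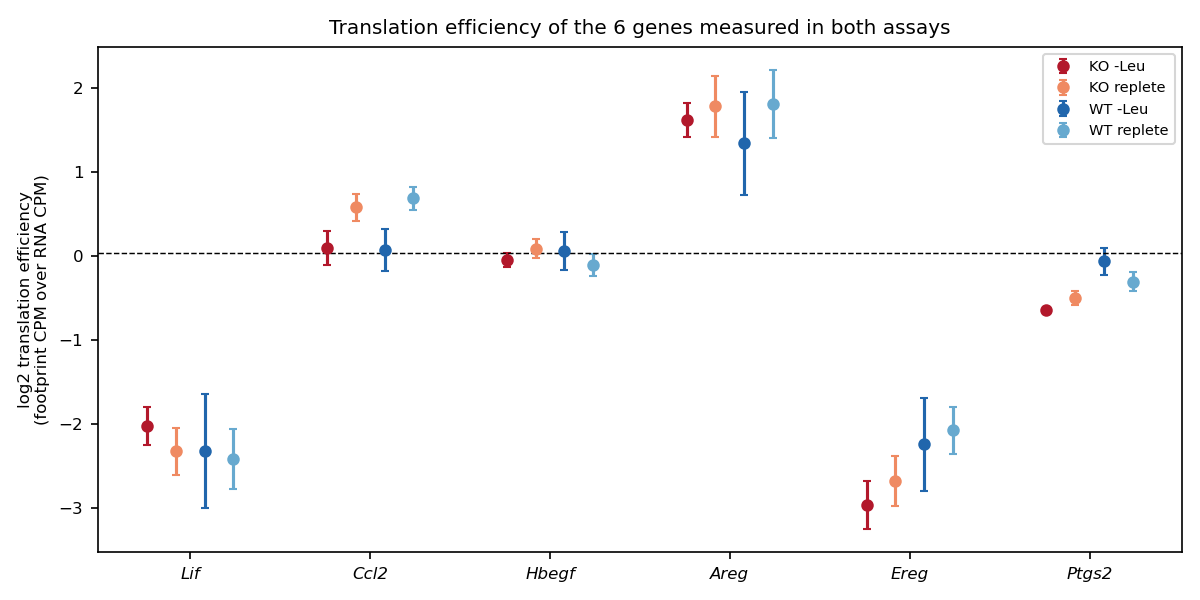
Log2 translation efficiency (footprint CPM over RNA CPM) of the 6 genes measured in both assays, in each of the 4 conditions, with 95% Wald counting intervals. The dashed line marks the typical gene. Areg lies above the line and Lif and Ereg below it in each condition.

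TE levels differed widely between the genes, from a log2 value of -2.97 for Ereg in KO leucine-free cells to 1.81 for Areg in WT replete cells. Areg had log2 TE of 1.62 and 1.78 in KO leucine-free and KO replete cells and 1.34 and 1.81 in WT leucine-free and WT replete cells, above 84.5% to 88.3% of genes. Its neighbour Ereg had log2 TE of -2.97 and -2.68 in KO cells and -2.24 and -2.08 in WT cells, above 1.33% to 6.68% of genes. Lif was similarly low, at -2.02 and -2.33 in KO cells and -2.32 and -2.42 in WT cells. Hbegf lay between -0.11 and 0.09 in the 4 conditions. Ptgs2 was at -0.65 and -0.51 in KO cells and -0.06 and -0.31 in WT cells. RNA reads cover untranslated exons as well as coding ones, so TE levels of genes with different shares of untranslated sequence are not on one scale. Counted exons span 4350 bases for Lif, 4128 for Ereg and 4834 for Hbegf, but 1215 for Areg.

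Receptors of the interleukin-6 family and of the EGF ligands were expressed, while several receptors of the chemokines and of prostaglandin E2 had no RNA read. Il6st, the gp130 chain shared by the interleukin-6 family, had RNA levels of 274 and 273 CPM in KO leucine-free and KO replete cells, against 241 and 293 CPM in WT leucine-free and WT replete cells. Lifr, the LIF receptor, lay between 69.7 and 106 CPM, Il6ra between 25.0 and 45.8 CPM and Il11ra1 between 4.05 and 6.09 CPM. Egfr, the receptor of the 3 EGF ligands, had 222 and 226 CPM in KO cells and 141 and 149 CPM in WT cells. None of these 5 genes was called in the leucine comparison of KO cells or in KO over WT cells in leucine-free medium. By contrast, 6 receptors had no RNA read in any of the 4 libraries: Cxcr2, Ccr1, Ccr2 and Ccr3 for the chemokines, and Ptger2 and Ptger3 for prostaglandin E2. A level of 3 counts, the 1-sided limit for a count of 0, was at most 0.0967 CPM in these libraries. Ptger4 and Ptger1, also prostaglandin E2 receptors, had reads in every RNA library but stayed at or under 0.870 and 0.714 CPM, and Erbb4 at or under 0.172 CPM.

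Of the genes on the 6 pathway lists, 79 were measured in RNA. In KO cells without leucine 11 of the 79 (13.9%) were called higher, where the share over all genes was 1.77%, and in WT cells 6 of 79 (7.59%), where it was 0.842%. In KO over WT cells without leucine 16 of 79 (20.3%) were called higher, where it was 5.26%. The lists were chosen with earlier results of these data known, so these shares are a description. Of 16 listed genes of interleukin-6 family signalling, 15 were measured in RNA and 2 were called higher in KO cells without leucine, Socs1 (log2 1.85) and Socs3 (1.12), feedback inhibitors of JAK signalling. The median of that list was 0.05. Socs1 RNA was 10.5 and 2.92 CPM in KO leucine-free and KO replete cells, against 3.09 and 3.67 CPM in WT leucine-free and WT replete cells. In WT cells 1 of the 15 was called higher, Cish (1.09). In KO over WT cells without leucine 4 of 15 were called higher, among them the gp130 ligands Ctf1 (1.88) and Clcf1 (1.39), beside Socs1 (1.76) and Socs3 (1.68).

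Of the other chemokines and chemokine receptors, 8 of 26 were measured in RNA, and 1 was called higher in KO cells without leucine, the CXCR3 ligand Cxcl10 (log2 2.19). In WT cells it was 1 of 8, the CCR6 ligand Ccl20 (1.66). Cxcl10 RNA was 9.45 and 2.06 CPM in KO leucine-free and KO replete cells and 5.45 and 4.47 CPM in WT leucine-free and WT replete cells. In replete medium 1 of the 8 was called lower in KO than in WT cells, Cxcl10 (log2 -1.11), as Ccl7 was. There 2 of the 8 were called higher, Cxcl14 (1.62) and Ccl20 (1.07), and the median of the list was 0.68. Over all measured genes 4.36% were called higher and 2.51% lower in that comparison. Of the other EGF ligands, ERBB receptors, sheddases and feedback genes, 18 of 22 were measured and 1 was called higher in KO cells without leucine, Errfi1 (1.49), a feedback inhibitor of the EGF receptor. None of the 18 was called in WT cells. In RNA of KO over WT cells without leucine 1 of the 18 was called higher, Errfi1 (1.58), and 1 lower, the EGF ligand Btc (-1.10). Over all measured genes 5.26% were called higher and 3.12% lower there. Btc was also called lower in the KO minus WT difference of the RNA leucine responses (-1.02). In replete medium 1 of the 18 was called lower in KO over WT cells, Egf (-1.22). The sheddase genes Adam17 and Adam10 had log2 leucine ratios of -0.00 and 0.05 in KO cells.

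Of the genes for prostanoid synthesis, transport and receptors, 11 of 23 were measured in RNA and 1 was called higher in KO cells without leucine, Cbr1 (log2 1.22), a carbonyl reductase. Footprints on Cbr1 went the other way, at 15.1 and 28.6 CPM in KO leucine-free and KO replete cells and 33.4 and 26.2 CPM in WT leucine-free and WT replete cells. Its TE was called lower in KO cells without leucine (log2 -2.14), and so were its footprints in KO over WT cells in that medium (-1.14) and in the KO minus WT difference (-1.27). In WT cells 1 of 11 was called lower, the prostaglandin D synthase gene Hpgds (-1.49). Ptgs1, which encodes the constitutive cyclooxygenase-1, had RNA levels of 72.9 and 61.6 CPM in KO leucine-free and KO replete cells, against 122 and 109 CPM in WT leucine-free and WT replete cells. Its log2 ratio of KO over WT in leucine-free medium was -0.75 (-0.82 to -0.68), not called and opposite in sign to that of Ptgs2. Pla2g4a, the phospholipase that frees the substrate of both enzymes, had a log2 leucine ratio of -0.34 in KO cells (-0.42 to -0.26). The inducible prostaglandin E synthase gene Ptges stayed at or under 0.738 CPM in RNA. Ptgfr, a prostanoid receptor gene, was measured in RNA and called lower in KO than in WT cells in both media. Its log2 ratios were -1.38 in leucine-free and -1.67 in replete medium. Of the 11 genes, Hpgds was called higher in KO over WT cells without leucine (1.37), and Cbr1 lower in replete medium (-1.20). Over all genes 3.12% were called lower in leucine-free and 2.51% in replete medium.

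Among 14 factors that bind or cut the mRNAs of inducible cytokines, all were measured in RNA, and 2 were called higher in KO cells without leucine, Zfp36 (log2 3.59) and Arid5a (1.87). Zfp36 encodes tristetraprolin, which binds AU-rich elements and promotes decay of cytokine mRNAs, and Arid5a encodes a protein known to stabilise Il6 mRNA. Zfp36 RNA was 370 and 30.7 CPM in KO leucine-free and KO replete cells, against 30.004 and 11.05 CPM in WT leucine-free and WT replete cells. In WT cells 1 of 14 was called, Zfp36 (1.44). Of the other inducible cytokines and secreted factors, 13 were measured in RNA of 35 found in the files. Called higher in KO cells without leucine were 4, among them Ccn1 (2.95), Ccn2 (2.41) and Edn1 (1.91), and 1 was called lower, Tnfsf9 (-1.83). In WT cells 3 of 13 were called higher, Edn1 (1.64), Ccn2 (1.40) and Ccn1 (1.40). TE did not follow RNA for some of these genes. In KO cells without leucine it was called lower for Ccn2 (-1.84) and Arid5a (-1.23) and higher for Tnfsf9 (1.38). Of the 61 list genes measured in both assays, TE was called higher for 4.92% and lower for 6.56% there, where it was 1.57% and 1.43% over all genes.

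Likeness over the 8 libraries was measured as the Euclidean distance of log2 CPM, centred within each assay, among the 9097 genes measured in both. Nearest to Ptgs2 were Egr3 (0.50), Jun (0.81) and Junb (0.87). The nearest gene to Lif was Hbegf (0.55), followed by Ier5l (0.62) and Jund (0.65). Hbegf was nearest to Kctd11 (0.45), Klf4 (0.46) and Fosl2 (0.53), and Areg to Klf4 (0.47), Dusp5 (0.57) and Fosl2 (0.64). Among the genes nearest to Ereg were Plaur (0.30) and Socs3 (0.43). Ccl2, which varied least, was nearest to Gtf2f2 (0.14), Tra2a (0.16) and Cwc15 (0.17). These distances describe 8 single libraries that differ in depth and genotype as well as in medium and assay.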

How the data were processed

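The authors deposited unnormalised read counts for each gene and library. Per the file headers, featureCounts 1.6.4 counted exons annotated in Ensembl release 96 and was run without settings for strand, multiple mapping or gene overlap. Besides featureCounts, cutadapt, STAR, Subread and GRCm38 are named in the submitters' processing notes. Here, TMM factors (edgeR 4.0.16, R 4.3.3) were computed within each assay over protein-coding genes with a mean count of at least 30. Log2 ratios used a prior count of 0.5, with 95% exact conditional binomial intervals for pairs of libraries, Wald intervals for TE and KO minus WT values, and exact Poisson intervals for CPM. Intervals cover counting error only, since each group is 1 library. PCR copies were not told apart from molecules, so the intervals may be too narrow even for that error. The procedure was run on simulated Poisson counts, which hold no spread between cultures and no PCR copies, so that run cannot speak to either. Python 3.11.15, pandas 2.3.3, scipy 1.17.1 and matplotlib 3.10.9 were used. The members and gene lists were chosen with earlier results of these data known. Named genes are the 10 members, Eif2ak4, at most 4 called genes per list and comparison, measured receptors or enzymes on which members act, and the 3 nearest genes. A few genes that this rule names are not reported here. Unmeasured receptors, Ptges, the sheddases, genes lying between members and single marker genes outside that rule were chosen after their values were seen. Gene symbols matched 55450 of 55536 identifiers, and 21421 genes were protein-coding by RefSeq symbol. The 8 alternative settings included DESeq2 1.42.0 size factors.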

Additional observations from a re-analysis of the deposited data

Results flagged for a closer look

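The leucine ratios of Lif RNA had opposite signs in KO and WT cells. Its log2 ratio of leucine-free over replete medium was 0.88 in KO cells (95% counting interval 0.82 to 0.95) and -0.13 in WT cells (-0.23 to -0.03), and both intervals excluded 0. Each value rests on 1 pair of libraries, so the difference between the genotypes was not tested against any spread between cultures. Neither value reached the 2-fold limit. The WT value had rank 3177 from the lowest among 10814 measured genes, so many genes had a lower WT ratio than Lif.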

How the results depend on the processing

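No paired analysis was possible because each group is 1 library and the labels give no replicate numbers, and for the same reason no library could be left out. Over 8 alternatives and 12 comparisons, 180 counts of members called stayed within 1.5 times the value reported, 12 moved and no called ratio changed sign. With a mean count of at least 10, the WT leucine footprint comparison had 2 members higher (0 as reported), and KO over WT footprints in each medium and TE in KO cells had 1 lower (0 as reported). Without a filter those values were the same, and WT leucine RNA had 2 higher (1 as reported) and KO over WT RNA in leucine-free medium 1 lower (0 as reported). With a mean count of at least 100, 3 members were called higher in KO over WT footprints in leucine-free medium (5 as reported), because fewer members were measured. Counting only ratios beyond 3 robust SDs of the 500 genes nearest in mean count, WT leucine RNA had 0 higher (1 as reported). Of the ratios of single members, 12 lost a call, each named beside its result above, and 10 of these under the setting of 3 robust SDs. The other 665 kept their status, and ratios not called under either setting are among them, so 665 is not a number of calls kept. The calls over all genes moved more: relative to the counts reported, those that moved by over 1.5 times were 1.51 to 3.09 times as many at a mean count of at least 10, 1.55 to 6.01 times as many without a filter, 0.128 to 0.629 times at 100, 0.113 to 0.527 times beyond 3 robust SDs, and 0.569 times for 1 count with the length trend removed. The share of called genes that were higher moved for TE in KO cells (52.4% as reported, 67.1% with total counts), and with the length trend removed for WT leucine RNA (49.2% as reported, 38.2%) and TE in WT cells (39.4% as reported, 54.5%). The cause of these shifts was not tested. In the WT leucine-free footprint library, which had the fewest reads (2671491), Lif, Areg and Ereg rest on 17, 24 and 26 reads.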

Other observations

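Levels of the other genes that lie between members on chromosome 5 were also read. Cxcl1 and Areg are 246483 bases apart, with Cxcl2, Mthfd2l, Epgn and Ereg between them. Cxcl2, a chemokine that like Cxcl1 signals through CXCR2, had RNA counts of 0 and 0 in KO leucine-free and KO replete cells, and 2 and 0 in WT leucine-free and WT replete cells. Epgn, the EGF family ligand epigen, had 0.677 and 0.470 CPM in KO cells and 0.344 and 0.476 CPM in WT cells, too low to be measured. Mthfd2l, a mitochondrial folate enzyme, had RNA levels of 17.9 and 20.9 CPM in KO leucine-free and KO replete cells, against 23.1 and 24.4 CPM in WT leucine-free and WT replete cells. Its footprint levels were 13.7 and 11.3 CPM in KO cells and 11.3 and 10.9 CPM in WT cells. The KO leucine-free library thus had the lowest Mthfd2l RNA level of the 4 and the highest footprint level, and it had the highest RNA level of Epgn, as it had of Ereg, Areg and Cxcl1, but the intervals of the 4 Epgn levels overlapped, as did those of the 4 Mthfd2l footprint levels.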
